A study of Canis lupus familiaris with 6 samples.

Results

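The Notch genes described here are 3 receptors, their ligands, the glycosyltransferase LFNG, the target genes HES1 and HEY1, and the ubiquitin ligase gene DTX4, 10 symbols in all. They were found by gene symbol in the deposited expression table of 12851 rows, which held 1 row for each of 8 of them: NOTCH1, NOTCH2, NOTCH3, JAG1, JAG2, HES1, HEY1 and DTX4. DLL1 and LFNG matched no row by symbol and are not analysed here. The samples came from the MDCK type II line of dog kidney epithelium: 3 libraries of cells with intact E-cadherin (WT, labelled control) and 3 of an E-cadherin loss-of-function derivative (KO), without any other named treatment. The labels name neither the knockout method nor the number of clones, and do not say whether the libraries are separate cultures, so that p-values reflect only library-to-library spread, which can be technical. They describe the cells as confluent in one place and as short of confluency in another.

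Notch receptors are single-pass membrane proteins activated by ligands of the Jagged and Delta-like families on an adjoining cell. The bound ligand is pulled into its own cell by endocytosis, the receptor is cut first by an ADAM protease and then by gamma-secretase, and the freed intracellular domain enters the nucleus, where with RBPJ and Mastermind-like proteins it switches on genes such as those of the HES and HEY repressors. In the kidney the pathway is known for its part in nephron segment formation and in the balance of collecting duct cell types. Because sender and receiver must touch, Notch signalling is studied together with cell contact, which E-cadherin mediates in epithelia.

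Each library held 18281549 to 19386796 normalized counts, and the values of libraries within a group correlated across genes at a Pearson r of 0.987 to 0.991, against 0.934 to 0.940 between groups. Transcript from CDH1, the targeted gene, was at 38542, 39643 and 39370 normalized counts in WT and at 1115, 1120 and 1237 in KO, which follows the labels. Of 11 listed epithelial markers 8 had a row, among them EPCAM and KRT18. Their summed level was 85010 to 88640 in WT and 41810 to 43800 in KO. The list holds CDH1, whose own fall makes up most of that difference. Of the 8, 0 were called higher and 5 lower, beside 23.6% and 24.5% of all tested genes. Renal tubule and collecting duct markers had rows for 8 of 11 genes, PAX2, PAX8 and CDH16 included. Of these 3 were called higher and 4 lower, and they summed to 18160 to 19680 in WT and 11500 to 12520 in KO; the list holds GATA3, described with the target genes. Endothelial, fibroblast and immune lists had rows for 1 of 10, 2 of 10 and 3 of 9 genes. The endothelial row was FLT1 (5245 to 5443 in WT, 2780 to 2998 in KO). The fibroblast and mural rows, PDGFRA and ACTA2, summed to 29.5 to 46.8 in WT and 89.5 to 96.8 in KO. The immune rows, CD14, CD79A and CD74, summed to 52150 to 57180 and 56950 to 64270, nearly all of it CD79A (13434 ± 906 in WT) and CD74. Whether the row named CD79A holds that gene alone was not tested. CD14 rose from 20.4 ± 2.53 to 48.2 ± 1.53 (adjusted p = 0.000256 in limma). None of the rows of these 3 lists was at 0 in all 6 libraries, and the part of such cells in the results below was not tested. In bulk RNA, fewer cells expressing a gene and less RNA per cell cannot be told apart.

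The comparison asks how transcripts of the Notch pathway differ between MDCK cells with and without E-cadherin. DTX4 was far higher in KO, JAG2 and the 3 receptors were modestly higher, HES1 was modestly lower, and JAG1 and HEY1 did not pass. All 8 genes had a mean of at least 10 normalized counts over the 6 libraries and entered the fit, DTX4 only through its KO values. Of the 8, 5 were called higher in KO, where 23.6% of all 12349 tested genes were, and 1 lower, where 24.5% were. Without WT replicate 2 the count higher was 3, and the count lower was 2 without KO replicate 3. A call means an adjusted p under 0.05 from limma on log2(normalized count + 1), with Benjamini-Hochberg adjustment over all tested genes; fold changes are on that scale and understate the change of low genes. For 7 of the 8 genes the 2 groups had no overlap, against 56.4% of all tested genes. The median log2 fold change of the 8 was 0.37, and that of all tested genes -0.01. The members were chosen with earlier results of these data known. These counts and this median therefore describe the 8 genes and are no test of the pathway.

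**Figure D1:**
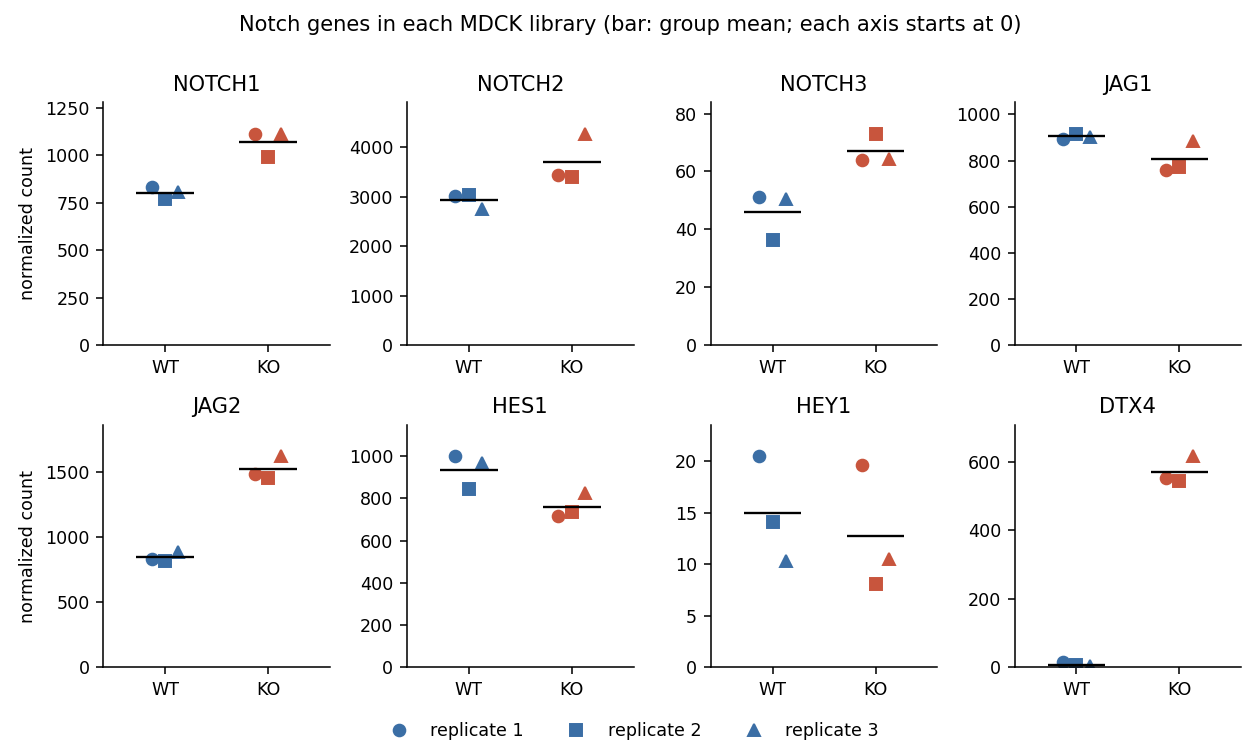
Normalized counts (vertical axes, each from 0) of the 8 Notch genes in the 3 WT (blue) and 3 KO (red) libraries. Marker shapes give the replicate number, and black bars are group means. DTX4 lies at 3.48 to 15.7 in WT and 545 to 616 in KO, and only HEY1 has overlapping groups.

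NOTCH1 (ENSCAFG00845005453), a receptor with broad roles in epithelial fate, had 836, 770 and 806 normalized counts in WT libraries and 1112, 989 and 1110 in KO libraries. All KO values lay above all WT values, and the groups were separated by more than their spread. The mean rose from 804 ± 33.2 to 1070.4 ± 70.3 (SD, n = 3 per group), and the fitted log2 fold change was 0.41 with an SE of 0.065 (adjusted p = 0.000155).

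NOTCH2 (ENSCAFG00845007331), the receptor known for its part in proximal nephron formation in mice, had 3021, 3048 and 2750 normalized counts in WT and 3437, 3400 and 4269 in KO. KO replicate 3 stood well above the other KO libraries, and the lowest KO value was 1.12 times the highest WT value. The mean rose from 2940 ± 165 to 3702 ± 491, by 0.33 on the log2 scale (SE 0.083; adjusted p = 0.00771 in limma). Without WT replicate 2 the call was lost, with a log2 fold change of 0.35 (adjusted p = 0.0616).

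NOTCH3 (ENSCAFG00845018638), best known from vascular smooth muscle, had low values: 51.3, 36.2 and 50.7 in WT and 63.8, 72.9 and 64.3 in KO. The groups did not overlap, but WT replicate 2 stood below the other WT libraries. The mean rose from 46.0 ± 8.54 to 67.0 ± 5.11, by 0.55 on the log2 scale (SE 0.18; adjusted p = 0.0235 in limma). This call was lost without WT replicate 2 (log2 fold change 0.39, adjusted p = 0.0891), with KO replicate 2 left out (0.49, adjusted p = 0.0891) and under quantile normalization (0.39, adjusted p = 0.0916). The authors' deposited table gives 0.55 with an adjusted p of 0.0517, just above the threshold.

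Of the ligands, JAG2 (ENSCAFG00845022668), a Jagged protein, had 829, 814 and 888 normalized counts in WT and 1479, 1454 and 1619 in KO. Its KO values were tightly grouped, and the lowest was 1.64 times the highest WT value. The mean rose from 844 ± 39.1 to 1517 ± 88.9, a fitted 1.80-fold increase (log2 fold change 0.85, SE 0.062, adjusted p = 9.30e-08).

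JAG1 (ENSCAFG00845024085), the other Jagged ligand and the gene mutated in most human Alagille syndrome, had 895, 915 and 903 normalized counts in WT and 758, 773 and 886 in KO. All KO values lay below all WT values, with KO replicate 3 close to the WT range. The means were 905 ± 9.89 and 806 ± 70.1, a log2 fold change of -0.17 (SE 0.068) that did not pass (adjusted p = 0.0550). It passed when KO replicate 3 was left out (-0.24, adjusted p = 0.0107).

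Ratios within a library do not depend on its scaling. They are not corrected for transcript length, so that only their change between groups can be read. The ratio of JAG2 to JAG1 was 0.926, 0.889 and 0.983 in the WT libraries and 1.95, 1.88 and 1.83 in the KO libraries. The groups stood far apart, and the KO mean of 1.89 ± 0.062 was 2.02 times the WT mean of 0.933 ± 0.047. That they do not overlap follows from the single genes, since all KO values of JAG2 lay above WT and all of JAG1 below. The ratio of NOTCH1 to NOTCH2 was 0.274 ± 0.020 in WT and 0.292 ± 0.032 in KO, with overlapping libraries. That of NOTCH3 to NOTCH2 overlapped too, at 0.0158 ± 0.0034 and 0.0184 ± 0.0032. No test was run on these ratios.

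**Figure D2:**
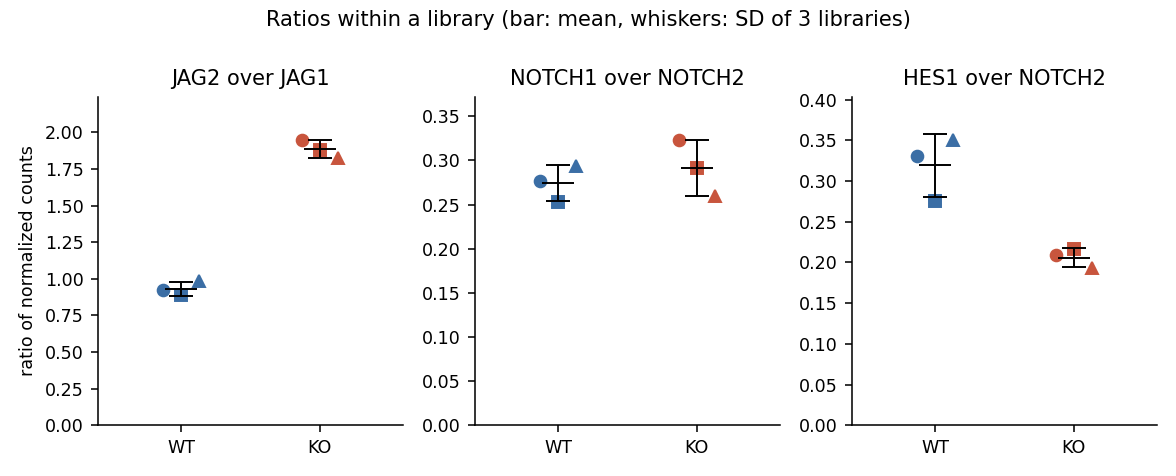
Ratios of normalized counts within each library (vertical axes, from 0) for JAG2 over JAG1, NOTCH1 over NOTCH2 and HES1 over NOTCH2 in WT (blue) and KO (red); black bars are means and whiskers the SD of 3 libraries. JAG2 over JAG1 moves from 0.933 to 1.89, NOTCH1 over NOTCH2 overlaps, and HES1 over NOTCH2 moves from 0.319 to 0.206.

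HES1 (ENSCAFG00845025905), a basic helix-loop-helix repressor that is the most widely used transcriptional readout of Notch, had 998, 841 and 965 normalized counts in WT and 718, 734 and 822 in KO. The groups were next to each other without overlap: the highest KO value was 0.977 times the lowest WT value, that of WT replicate 2. The mean fell from 935 ± 82.7 to 758 ± 56.1, with a log2 fold change of -0.30 and an SE of 0.077 (adjusted p = 0.00571). The receptors and HES1 changed in opposite directions. The ratio of HES1 to NOTCH2, itself called higher, was 0.330, 0.276 and 0.351 in WT and 0.209, 0.216 and 0.193 in KO. It had no overlap, which follows from the opposite changes of HES1 and NOTCH2, each without overlap. JAG1 was not called, and the ratio of HES1 to JAG1 overlapped, at 1.03 ± 0.10 in WT and 0.942 ± 0.012 in KO.

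HEY1 (ENSCAFG00845029695), a related repressor, was near the limit of the measurement, with 20.5, 14.2 and 10.3 normalized counts in WT and 19.6, 8.09 and 10.5 in KO. The groups overlapped throughout. Means were 15.0 ± 5.15 and 12.8 ± 6.08, and the log2 fold change of -0.26 had a standard error of 0.37 (adjusted p = 0.602). If the step of 0.860 to 1.14 normalized counts seen among low values is about 1 read, these are few reads. With this standard error, a difference of the size seen in HES1 (-0.30) was not detectable.

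DTX4 (ENSCAFG00845017636) encodes a member of the Deltex family, RING-type ubiquitin ligases first known in Drosophila as regulators of Notch trafficking; mammalian DTX4 has also been tied to degradation of the kinase TBK1. It had 15.7, 6.30 and 3.48 normalized counts in WT, which is a handful of reads, and 551, 545 and 616 in KO. The KO libraries lay within 1.13-fold of each other, whereas the WT libraries spread over 4.52-fold. The lowest KO value was 34.6 times the highest WT value. The mean rose from 8.51 ± 6.42 to 571 ± 39.4, 67.1-fold as a ratio of means, with a fitted log2 fold change of 6.13 (SE 0.47, adjusted p = 7.91e-05), the rank 5 rise among all tested genes. The size depends on the few WT reads: the log2 fold change was 5.52 with a pseudocount of 5 and 5.69 to 6.64 when 1 library was left out. The authors' deposited table gives 6.16 with a standard error of 0.32.

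**Figure D3:**
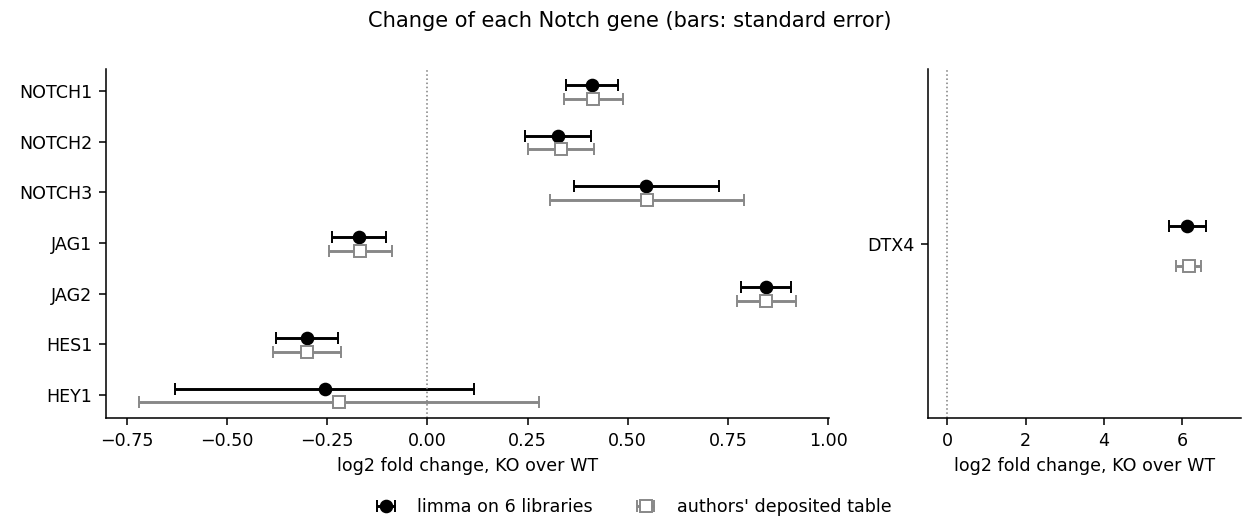
Log2 fold change of KO over WT (horizontal axes, with a wider scale for DTX4) for the 8 Notch genes, as fitted by limma on the 6 libraries (filled circles) and as given in the authors' deposited table (open squares); bars are standard errors. The estimates lie close together for every gene, from -0.30 for HES1 to 6.13 for DTX4.

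No rise was called for the other Deltex genes tested. DTX2 was at 430 ± 42.7 in WT and 408 ± 11.8 in KO (log2 fold change -0.07, adjusted p = 0.522). DTX3 was at 931 ± 15.8 and 895 ± 51.0 (-0.06, adjusted p = 0.458). DTX3L, a partner of PARP9 in DNA damage and interferon responses, fell from 912 ± 62.2 to 738 ± 27.8 (log2 fold change -0.30, SE 0.067, adjusted p = 0.00206). DTX1 is not analysed here. DTX2 and DTX3 were named after their values were seen.

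Genes beside DTX4 in the RefSeq order changed far less than DTX4. Among the 10 nearest tested genes, 5 on each side, 2 were called higher, 3 lower and 5 not called, with log2 fold changes from -0.40 to 0.56. The next gene on one side was OSBP, at 1894 ± 31.9 in WT and 1639 ± 52.5 in KO, and on the other FAM111A, at 833 ± 33.9 and 708 ± 52.4; both fell. Neighbours of JAG2 were 4 higher, 2 lower and 4 not called, with no log2 fold change above 0.40, under its own 0.85. Neighbours of NOTCH1 were 2 higher and 4 lower, those of NOTCH2 1 and 5, those of NOTCH3 3 and 1, and those of JAG1 1 and 3, each of 10. HES1 lies last among the tested genes of its sequence, and of its 5 neighbours on the other side 2 were higher and 1 lower. Around HEY1, 3 were higher and 4 lower of 10, with HNF4G at a log2 fold change of -4.84.

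**Figure D4:**
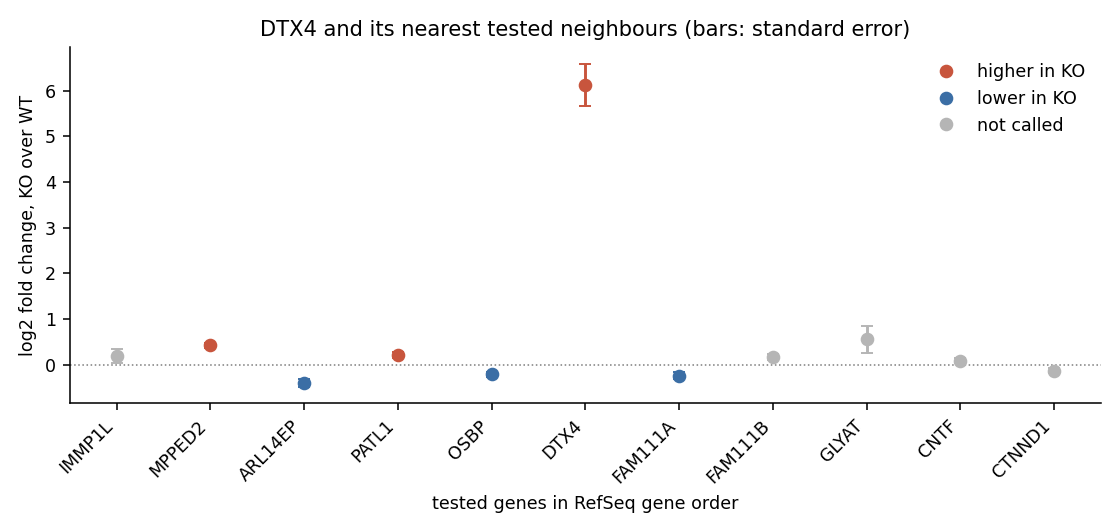
Log2 fold change of KO over WT (vertical axis) for DTX4 and the 5 nearest tested genes on each side, in RefSeq gene order and not to distance; bars are standard errors, and red, blue and grey mark genes called higher, lower and not called. DTX4 stands at 6.13 and its neighbours between -0.40 and 0.56.

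By the Euclidean distance between profiles of log2(normalized count + 1) over the 6 libraries, each centred on its mean, the genes most like DTX4 were JAM3 (distance 0.756), GAS7 (0.801), LBP (1.40), COL23A1 (1.45) and C3 (1.69). All have the shape of near absence or low level in WT and a high level in KO, and the 6 libraries form 2 groups. The size of the change alone does not set their order: the log2 fold change was 6.53 for JAM3, 5.96 for GAS7 and 6.13 for DTX4. Differences among the few WT reads enter the distance too. GAS7 had 8.21, 6.43 and 3.91 normalized counts in WT and 431, 417 and 451 in KO. The order of its WT libraries was that of DTX4, which the choice by likeness favours, and it rests on few reads. The complement gene C3 had 54.1, 30.2 and 32.2 in WT and 1112, 1119 and 1307 in KO. For the other members the nearest gene was RNF123 for NOTCH1 (0.0673), IPO4 for NOTCH2 (0.117), TBX20 for NOTCH3 (0.129), DIDO1 for JAG1 (0.0646), JADE2 for JAG2 (0.0714), RASA4B for HES1 (0.0729) and H1-2 for HEY1 (0.487).

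KO replicate 3 was the highest KO library for 5 of the 8 genes: NOTCH2, JAG1, JAG2, HES1 and DTX4. The share over all tested genes was not counted, so this cannot be read as particular to the Notch genes. For HES1, which fell, and for JAG1, whose KO values lay below WT without passing the test, KO replicate 3 was thus nearest to WT. For NOTCH2, JAG2 and DTX4 it was farthest from WT.

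Of 81 other Notch pathway genes listed by role, 61 had a row and 60 were tested: 19 were called higher, 19 lower and 22 not called, or 31.7% in each direction beside the 23.6% and 24.5% of all tested genes. Their median log2 fold change was -0.02. These lists too were chosen with earlier results of these data known, so their shares are description only. The 1 other ligand or receptor with a row was DLL4, a Delta-like ligand prominent in endothelium. It had 30.8, 27.4 and 18.0 normalized counts in WT and rose to 53.0, 33.3 and 47.0 with KO (log2 fold change 0.79, SE 0.25, adjusted p = 0.0197), with the lowest KO library close to the highest WT library. Leaving out WT replicate 3 ended the call (adjusted p = 0.0761), as did leaving out KO replicate 1 (0.0890) or KO replicate 3 (0.0592).

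Of 6 tested genes for ligand endocytosis, 4 were called higher and 0 lower, beside 23.6% and 24.5% of all tested genes. The list median was 1.18, and no test of the list was made. One of the 4 is NEURL2, whose neighbouring genes were called higher as well. The Neuralized family, ubiquitin ligases of which the Drosophila founder drives Delta endocytosis, held the larger changes. NEURL1B had 51.5, 60.4 and 75.3 normalized counts in WT and 311, 322 and 366 in KO, a fitted 5.32-fold increase (adjusted p = 1.00e-08). NEURL3 had 44.4, 44.3 and 44.7 in WT and 181, 198 and 226 in KO, 4.44-fold (adjusted p = 1.83e-08). In both, the groups stood far apart. NEURL3 is also known as an inflammation-induced gene in lung epithelium, and the role of mammalian NEURL2 is best known in muscle.

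NEURL2 rose 4.01-fold, from 18.2, 8.85 and 18.0 to 62.8, 58.5 and 60.4 (adjusted p = 3.32e-05), and its neighbours were higher too: 10 of its 10 nearest tested genes were called higher, with a median log2 fold change of 0.88. The Mind bomb ligases, which ubiquitinate Jagged and Delta-like ligands in mammals, moved little. MIB2 rose from 303 ± 31.8 to 389 ± 16.7 (log2 fold change 0.37, adjusted p = 0.00453), and MIB1 was at 984 ± 52.2 and 1051 ± 34.5 (adjusted p = 0.213). NEURL4 was at 874 ± 84.3 and 861 ± 35.8 (adjusted p = 0.862). MIB1 and NEURL4 were named after their values were seen.

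**Figure D5:**
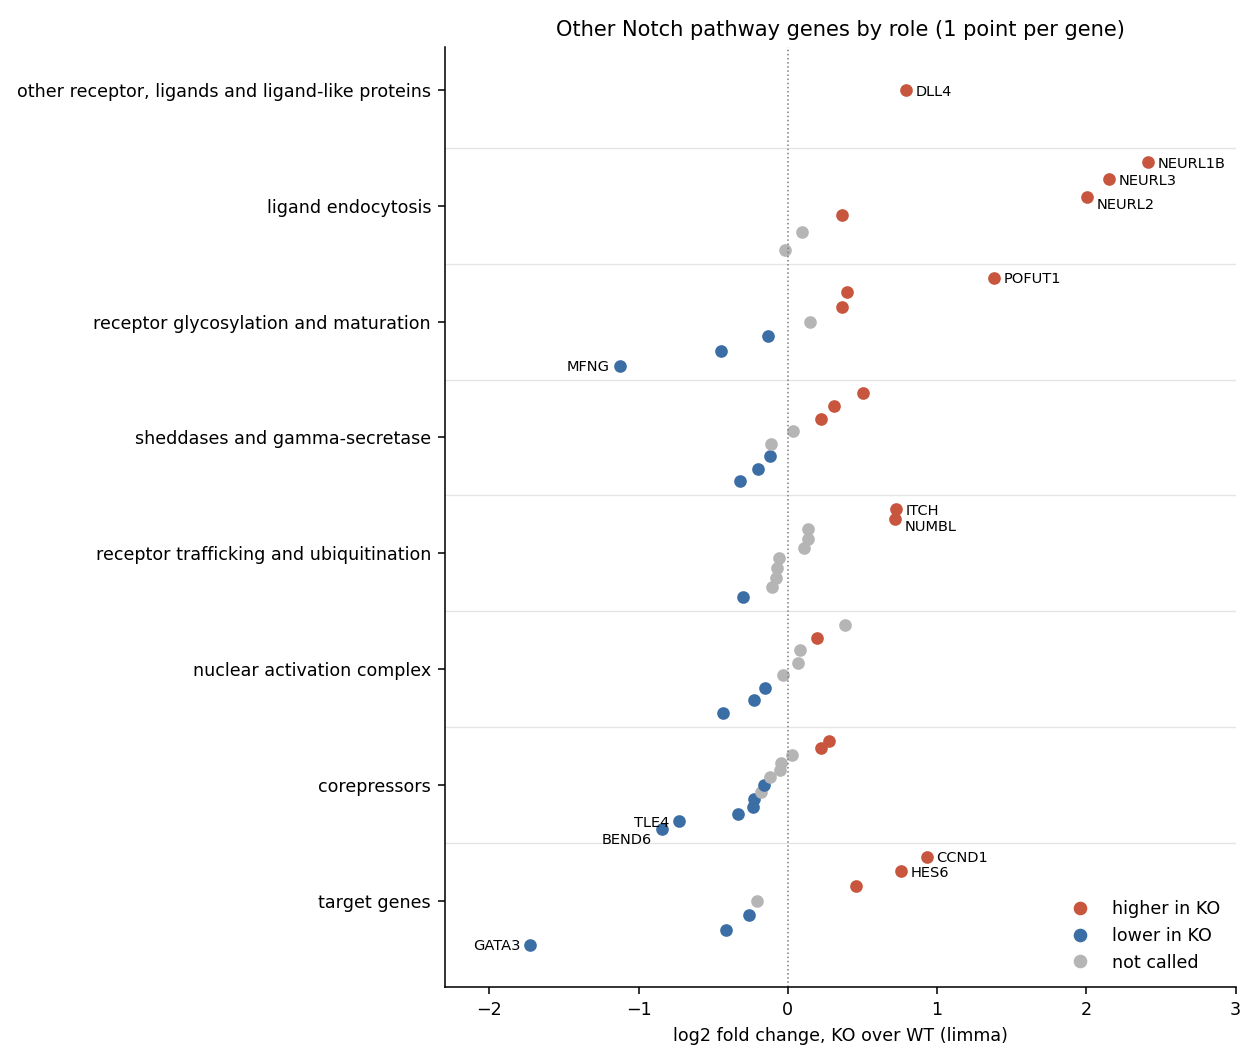
Log2 fold change of KO over WT (horizontal axis) for the 60 tested Notch pathway genes other than the members, 1 point per gene, in rows by role; red, blue and grey mark genes called higher, lower and not called, and symbols are given for the larger changes. Ligand endocytosis genes lie at or right of 0 apart from NEURL4 at -0.02, while most other rows hold points on both sides.

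Receptor glycosylation and maturation genes were 3 higher and 3 lower of 7, beside 23.6% and 24.5% of all tested genes. POFUT1, the enzyme that puts O-fucose on the EGF-like repeats of Notch, rose from 649 ± 35.6 to 1689 ± 51.0, a fitted 2.60-fold increase (adjusted p = 5.62e-10). As around NEURL2, 10 of its 10 nearest tested genes were called higher, with a median log2 fold change of 0.88. MFNG, a Fringe enzyme that extends that fucose, fell from 38.7, 46.0 and 39.0 to 20.1, 15.3 and 19.9 (log2 fold change -1.13, SE 0.22, adjusted p = 0.000891), the groups well apart at a low level. POGLUT2 rose 1.28-fold (adjusted p = 0.000466). POGLUT3, its close relative among protein O-glucosyltransferases, had a log2 fold change of -0.45 and fell (adjusted p = 0.000615).

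The genes for the sheddases and gamma-secretase, which cut the receptor, changed little and in both directions. Of 8, 3 were higher and 3 lower, beside 23.6% and 24.5% of all tested genes. Among subunits of gamma-secretase, NCSTN, nicastrin, rose from 1923 ± 78.1 to 2378 ± 3.21 (log2 fold change 0.31, adjusted p = 0.000145) and PSEN2, a presenilin, from 208 ± 20.0 to 295 ± 15.0 (0.50, adjusted p = 0.000770). PSENEN, the presenilin enhancer, fell (log2 fold change -0.32, adjusted p = 0.000904). The sheddase gene ADAM17 fell by 0.20 in log2 units (adjusted p = 0.00190). ADAM10, the other sheddase gene of the list, rose by 0.22 (adjusted p = 0.00220). It was named after its values were seen. In receptor trafficking and ubiquitination, 2 of 10 were higher and 1, DTX3L above, lower, beside the same shares of all tested genes. ITCH, a HECT ubiquitin ligase that acts on Notch, rose from 714 ± 46.7 to 1182 ± 103, 1.65-fold (log2 fold change 0.726, adjusted p = 2.50e-06). Of its 10 nearest tested genes, 10 were also called higher. Their median log2 fold change was 0.993, above that of ITCH. NUMBL, a Numb-like adaptor, rose 1.64-fold (adjusted p = 4.79e-06), with 0 of its 10 neighbours higher and 2 lower. The neighbours of the genes in these lists were counted after the values were seen.

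In the nucleus, the activation complex held 1 higher and 3 lower of 8 tested genes, beside 23.6% and 24.5% of all tested genes. RBPJ, the DNA-binding partner of Notch, named after its values were seen, had 213, 235 and 148 normalized counts in WT and 241, 269 and 251 in KO (log2 fold change 0.38, SE 0.15, adjusted p = 0.0515), with WT replicate 3 below the rest. The authors' deposited table gives an adjusted p of 0.0423, under the threshold. KAT2B, an acetyltransferase coactivator, fell by 0.44 in log2 units (adjusted p = 0.00235), SNW1 by 0.23 (adjusted p = 0.00169) and MAML1, a Mastermind-like coactivator, by 0.15 (adjusted p = 0.0440), while KAT2A rose 1.14-fold (adjusted p = 0.0104). The MAML1 call was lost under 8 of 15 alternatives, with adjusted p up to 0.147.

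Of 13 tested corepressors, 6 were lower and 2 higher, beside 24.5% and 23.6% of all tested genes. The list median was -0.16, and no test of the list was made. TLE4, a Groucho-family corepressor that HES proteins recruit, fell from 704 ± 26.2 to 423 ± 21.0 (log2 fold change -0.73, SE 0.070, adjusted p = 1.28e-06). BEND6, a corepressor that binds RBPJ, fell from 157 ± 11.3 to 86.9 ± 8.50 (-0.85, adjusted p = 8.52e-05). CIR1 fell by 0.33 (adjusted p = 0.000643) and CTBP2 by 0.23 (adjusted p = 0.00157).

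Further genes listed as Notch targets, none of them specific to Notch, were 3 higher and 3 lower of 7. Of all tested genes, 23.6% were higher and 24.5% lower. CCND1, cyclin D1, rose from 1510 ± 26.4 to 2877 ± 91.5, 1.90-fold (adjusted p = 3.16e-09), and SOX9 1.37-fold (adjusted p = 0.000138). GATA3, a regulator of the collecting duct lineage, fell from 470 ± 52.9 to 142 ± 24.2 (log2 fold change -1.73, SE 0.12, adjusted p = 1.00e-07), and MYC fell by 0.26 (adjusted p = 0.000395). The HES genes HES4 and HES6 were named after their values were seen. HES4 fell from 492 ± 24.5 to 371 ± 40.5 (log2 fold change -0.41, adjusted p = 0.00164), the same direction as HES1. HES6, which opposes HES1 in mice, rose from 14.4 ± 0.926 to 25.3 ± 3.54 (0.76, adjusted p = 0.0231). The authors' deposited table gives HES6 an adjusted p of 0.0598, above the threshold.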

How the data were processed

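Poly-A RNA was sequenced from 3 WT and 3 KO MDCK libraries. Reads were handled with STAR 2.5.2b, featureCounts, DESeq2 1.14.1, Picard 2.8.1 and FastQC, per the submitters' processing notes; for the genome build, none is given in the sources used here. In the table the authors deposited a normalized count per gene and library, a signal that is not whole reads. Per the file headers, the authors also deposited a mean, a log2 fold change, its standard error and statistic (scores), and p-values. Of values under 12, 69.2 to 80.7% lay within 0.1 of a multiple of a step of 0.860 to 1.14 per library, so reads were not recovered and count tests were left out. If the step is about 1 read, this gives 16901688 to 22539158 reads per library.

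From these, values were transformed to log2(value + 1), genes averaging 10 or more were kept, and limma 3.58.1 in R 4.3.3 was fitted to all 12349 of them (trend and robust options, statmod 1.5.0, two-sided, Benjamini-Hochberg, threshold 0.05). This fit was tested on simulated data in which 96 genes changed 1.5-fold and 104 changed 3-fold. It recovered 81.2% and 100% of them, with 12 false calls among 194. Far fewer genes changed there than were called here, and changes under 1.5-fold were not simulated. No 2 libraries of a group held the same value above 0 in any row. Where a symbol repeats, the row of highest mean was taken. Gene order came from RefSeq for UU_Cfam_GSD_1.0, which placed 97.9% of 10003 tested symbols. The members and lists were chosen with earlier results of these data known. Named from each list were up to 4 called genes with the smallest adjusted p, and for likeness the 5 genes nearest to DTX4 and the 1 nearest to each other member. Levels are not compared between genes, since transcript lengths were not used here. Reads shared with near-identical or overlapping genes could not be assessed. Alternatives were other scalings, pseudocounts, filters, limma options, a replicate block, leaving out each library, and the authors' calls.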

Additional observations from a re-analysis of the deposited data

Results flagged for a closer look

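For the 3 receptors, the authors' deposited mean of normalized counts lay above the highest of the 6 libraries, a signal in a column that the comparison did not use. It was 1154 for NOTCH1 (highest library 1112), 4373 for NOTCH2 (highest 4269) and 103 for NOTCH3 (highest 72.9). The same held for 2261 of 12851 rows, or 17.6%. The mean of the 6 libraries never exceeded 1.5 times the deposited mean, the ratio that a mean over 9 libraries would give; further libraries are not analysed here.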

How the results depend on the processing

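DTX4, JAG2, NOTCH1 and HES1 kept their direction and call under all 15 alternatives. Over the 8 genes, 112 of 119 alternative values kept both, 5 lost a call (NOTCH2 once, NOTCH3 in 4), 2 gained one (JAG1) and 0 changed sign. The count of Notch genes called higher was 5, and 3 to 5 when 1 library was left out, the 3 without WT replicate 2. The count called lower was 1, 1 to 2 when 1 library was left out, the 2 without KO replicate 3, and 2 with the replicate block, where JAG1 passed (adjusted p = 0.0480). The cause was not tested. Over all genes the leave-one-out counts were 2493 to 2918 higher and 2559 to 2998 lower. Same-numbered libraries did not deviate together across genes (r of 0.0537, -0.0256 and -0.0395), so no pairing by replicate number was seen. A pairing that touches few genes would not show in such an r. The block moved no other count past 1.5 times. Among 28 other genes named by rule, 406 of 417 values kept their call, and 11 lost it (DLL4 in 3, MAML1 in 8). Among 10 named after their values were seen, which leave out ADAM10, HES6 lost its call in 5, with adjusted p up to 0.0842, and FAM111A in 1. RBPJ gained one in 5, with adjusted p down to 0.00705 without WT replicate 2. NEURL4, not called, changed sign in 4: 0.0014 under quantile normalization, and 0.028, 0.018 and 0.016 without WT replicate 1, WT replicate 3 and KO replicate 2, in a leave-one-out range of -0.10 to 0.028. HEY1 fell under the minimum mean of 50 and had no value there; without KO replicate 2 its log2 fold change was -0.0015. HEY1, the WT level of DTX4 and TLE2, which was under the filter, rest on low values. No alternative shifted the median of all genes by over 0.1.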
